A study of Mus musculus with 7 samples.

Results

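The genes described here carry glucose into the muscle fiber and break it down to lactate. They are 36 genes: glucose transporters, the enzymes of each step of glycolysis and their isozymes, the enzymes that set the level of fructose-2,6-bisphosphate, the fructose bisphosphatases, the lactate dehydrogenases and lactate transporters, and both glycerol-3-phosphate dehydrogenases. They were chosen by name, through the gene symbol or the RefSeq accession of each array probe, with earlier results of these data known. Of the 36, 35 had a probe that could be tested, out of 16577 genes tested in all, and Slc2a12, a glucose transporter, was not matched to a probe and was not tested. The 35 genes had 56 probes, of which 55 passed the filter on dim signals.

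Quadriceps RNA of C57BL/6 mice aged 3 months (90 days) was hybridized to single-color Agilent mouse arrays, with 4 arrays from WT mice and 3 from AR113Q mice. AR113Q mice carry a knock-in androgen receptor allele with an expanded polyglutamine tract, a model of spinobulbar muscular atrophy, and at this age they were studied before motor dysfunction. The labels name the controls WT, while the text of the study describes control mice with a shorter repeat in the same humanized allele, and the sources used here do not settle which holds. The design text adds the letters NCD to the name of the mutant mice without explaining them, and the labels do not give the sex of these mice, while the study states that male mice were used. Each array is labelled as a separate mouse of its group.

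Glucose enters resting muscle through the transporter encoded by Slc2a1 and, after insulin or contraction, through the one encoded by Slc2a4 (GLUT4). Hexokinase traps it as glucose-6-phosphate, phosphofructokinase commits it to glycolysis, and the lower steps yield pyruvate, which lactate dehydrogenase reduces to lactate for export. Fast glycolytic fibers, which make up most of the mouse quadriceps, hold these enzymes at very high levels, and most steps have a muscle isozyme beside isozymes of other tissues.

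On every array the muscle markers were bright. The mean log2 level of 9 fast fiber markers was 16.06 to 16.26 in WT and 15.79 to 16.02 in AR113Q muscle, and 2 of the 9 were lower in AR113Q. The mean of 8 slow fiber markers differed between arrays of the same genotype. It was 10.61 on WT 2, 10.59 on WT 3 and 12.02 on AR113Q 3, against 6.69 to 7.17 on the other 4 arrays. Myh7, the slow myosin heavy chain, had a log2 signal of 12.56, 11.89 and 13.59 on those 3 arrays and of 4.95 to 6.66 on the others. Of the 8, only Atp2a2, the slow calcium pump, passed the test, higher in AR113Q by 1.42 (adjusted p = 0.025) without overlap. The counts of members are therefore also given without these 3 arrays. Of 8 general skeletal muscle markers 3 were lower, Ckm, Ttn and Mylpf, with log2 fold changes of -0.80, -0.66 and -1.37, and Actn2 was higher by 1.09, on 6 arrays because its value on WT 1 is missing. Their mean log2 level was 15.14 to 15.26 on WT 2 to 4, where all 8 had a value, and 14.63 to 15.35 on the AR113Q arrays. Of 6 fibroblast markers 4 were lower, Col1a1 with a log2 fold change of -3.27, and their mean log2 level was 12.20 to 12.58 in WT against 10.13 to 11.50 in AR113Q muscle. The part of these markers in the results was not tested. In whole muscle, fewer cells of a type and less RNA per cell cannot be told apart.

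The glycolytic genes that passed the test were lower in AR113Q than in WT quadriceps, with a single exception that was higher. Of the 35 genes tested, 17 were lower and 1 was higher at an adjusted p of at most 0.05 (limma, Benjamini-Hochberg over all genes), and 17 did not pass. Those that did not pass include Aldoa, whose value was fixed by normalization. The lower members were Slc2a4, Hk2, Hk3, Pfkm, Pfkfb1, Tigar, Fbp2, Tpi1, Pgk1, Pgam1, Pgam2, Bpgm, Eno1, Pkm, Slc16a3, Gpd1 and Gpd2, and the higher one was Slc2a1. Thus 48.6% of the members were lower, where 22.6% of all genes tested were lower and 21% were higher. When a log2 fold change of 1 or more in either direction was also asked for (a differentially expressed gene, DEG), 13 members were lower and 1 was higher, against 13.1% and 11.2% of all genes. The WT and AR113Q values did not overlap in 21 of the 35 members, and in 49.3% of all genes. When a gene had to be well above background on all 7 arrays, 32 members were tested, of which 16 were lower, 1 was higher and 13 were DEGs, against 3236 lower and 3093 higher of 13733 genes. The 17 lower members and the 13 lower DEGs include Hk3, which passed the filter only through WT and had to differ, and these last counts are without it.

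The median log2 fold change (AR113Q minus WT) over the 35 members was -0.56, and over all genes it was -0.01. On the AR113Q arrays the median deviation of the members from their WT mean was -1.05, -0.60 and -0.43, against -0.06 to 0.02 for the WT arrays. AR113Q 1 had the lowest values and AR113Q 3, the array with the brightest slow fiber markers, the least reduced ones. Without the 3 slow-fiber-rich arrays, 14 members were lower and 1 was higher, 15 were DEGs, and the median was -0.72, where 2521 of all 16577 genes were lower and 2358 were higher. Only slide 2 held both genotypes, as WT 2 and AR113Q 1, and within it AR113Q 1 differed from WT 2 by 0.99 for Slc2a1, -1.65 for Tigar and -2.39 for Gpd1 on the log2 scale. With slide as a fixed effect, which rests the comparison on those 2 arrays, limma called 0 of all 16577 genes and so 0 members.

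**Figure D1:**
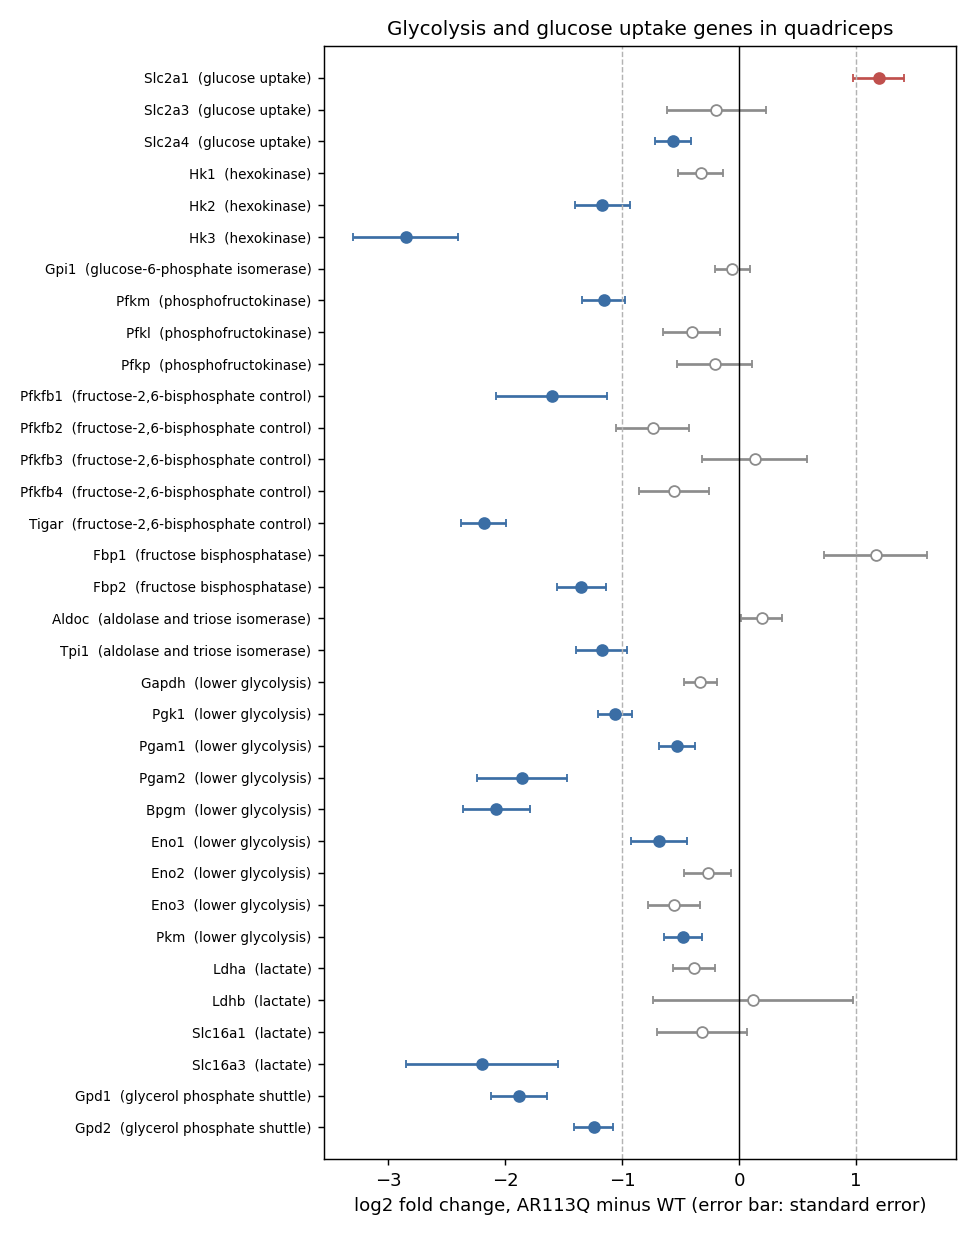
Log2 fold change of 34 members (AR113Q minus WT, horizontal axis) with its standard error, in the order of the pathway. Filled blue points were lower and the filled red point, Slc2a1, was higher at an adjusted p of at most 0.05, open points did not pass, and dashed lines mark a log2 fold change of 1 in either direction; Aldoa is left out because normalization fixed its value, and the point of Hk3 is its measured value below background in AR113Q, where only a bound is known.

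Beginning with uptake, Slc2a1, which encodes the basal glucose transporter GLUT1, rose while Slc2a4 fell. The log2 signal of Slc2a1 was 8.25, 8.66, 8.18 and 7.82 on WT arrays 1 to 4 and 9.64, 9.34 and 9.28 on AR113Q arrays 1 to 3. All 3 AR113Q values were above all 4 WT values. The log2 fold change was 1.19 (SE 0.22, adjusted p = 0.0033), or 2.29-fold. Slc2a1 is also expressed in endothelium. Of 7 endothelial markers 2 were higher (Pecam1, 0.60, and Flt1, 0.67) and 5 did not pass, with a median log2 fold change of -0.03. Their mean log2 level was 9.09 to 9.16 on the WT and 9.02 to 9.38 on the AR113Q arrays. Their part in the result was not tested.

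Slc2a4 encodes the insulin-responsive transporter. Its log2 signal was 15.15, 15.30, 15.30 and 15.23 on the WT arrays and 14.50, 14.64 and 14.90 on the AR113Q arrays, with no overlap. The log2 fold change was -0.57 (SE 0.15, adjusted p = 0.019), and the adjusted p was 0.051 without WT 3 or without AR113Q 2, 0.079 without the slow-fiber-rich arrays, and 0.0048 to 0.12 over all settings. Slc2a3, a transporter of neurons and blood cells, had a log2 fold change of -0.20 (SE 0.42, adjusted p = 0.73).

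Among the hexokinases, Hk2, the main form of insulin-sensitive muscle, fell. Its log2 signal was 11.73, 12.28, 12.20 and 11.65 in WT and 10.66, 10.57 and 11.17 in AR113Q muscle. The groups did not overlap, and the log2 fold change was -1.17 (SE 0.23, adjusted p = 0.0049). Hk1, the form common to most tissues, had a log2 fold change of -0.33 (SE 0.19, adjusted p = 0.19) at its brightest probe, which the array annotation places on chromosome 5 rather than on the gene's own chromosome 10; its other 2 probes gave -0.08 and 0.22.

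Hk3, a hexokinase of myeloid cells, was dim. It was well above background on 3 of 4 WT arrays and on 0 of 3 AR113Q arrays, so it passed the filter only through WT and had to differ. Its log2 signal was 5.49, 4.91, 4.33 and 5.82 in WT and 1.86, 3.22 and 1.78 in AR113Q muscle. On this scale the decrease can be given only as a bound, at least 2.78-fold lower in AR113Q, the mean of the WT values against the higher of each array's lowest detected signal and the probe's own, and supports no direction. With normexp its log2 fold change was -0.37 (adjusted p = 0.034), and in the table normalized by the authors it was -0.18 (adjusted p = 0.092), both smaller than that bound. Of 7 macrophage markers 3 were lower (Adgre1, Csf1r and Lyz2), 1 was higher (Cd14), and all 7 were well above background on every array. Their mean log2 level was 9.27 to 9.96 in WT and 8.97 to 9.35 in AR113Q muscle. The 4 neutrophil markers tested did not pass, with a median log2 fold change of 1.13. The mean log2 level of these 4 was 7.07 to 7.59 on WT 1 to 3, 11.12 on WT 4 and 9.07 to 10.21 in AR113Q muscle. The part of both marker lists in the result of Hk3 was not tested.

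**Figure D2:**
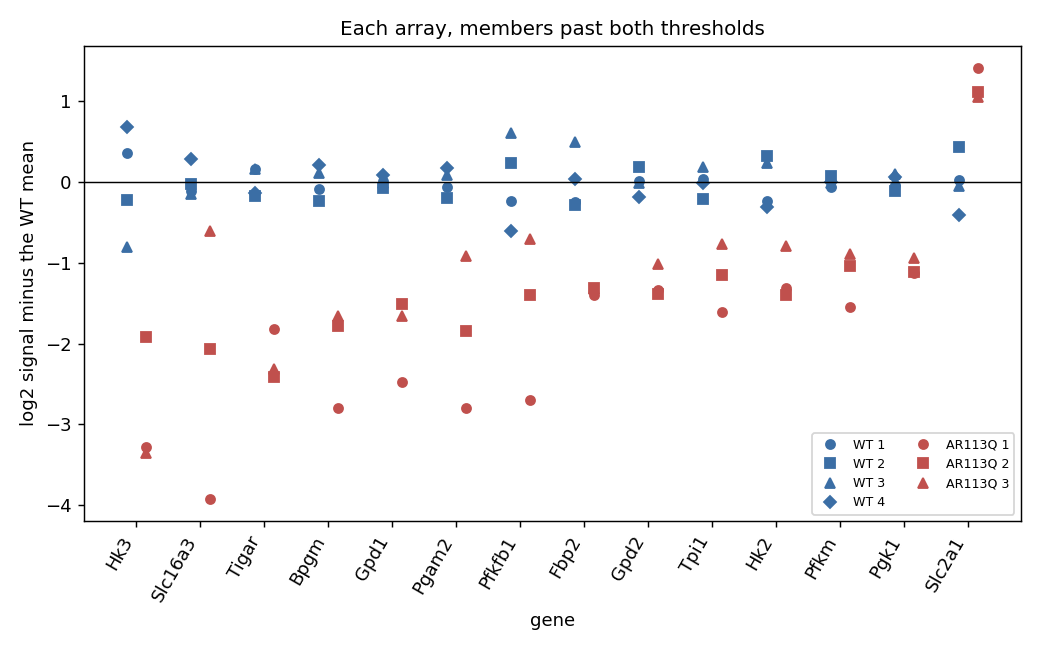
Log2 signal of the 14 members past both thresholds on each array, as the difference from the WT mean of the same gene (vertical axis; blue, WT; red, AR113Q; marker shape, replicate). Slc2a1 lies above 0 on all AR113Q arrays and the other 13 genes lie below every WT array, with the widest spread among AR113Q arrays for Slc16a3; Hk3 was below background in AR113Q and passed the filter only through WT, so its points there are no support for a decrease.

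At the committing step, Pfkm, the muscle phosphofructokinase, fell and the forms of liver and platelets, Pfkl and Pfkp, did not pass. Pfkm was 16.70, 16.82, 16.75 and 16.76 in WT and 15.20, 15.72 and 15.87 in AR113Q muscle, with a spread of 0.05 (SD, n = 4) and 0.35 (SD, n = 3). The log2 fold change was -1.16 (SE 0.19, adjusted p = 0.0019), or 2.23-fold lower. Pfkl gave -0.41 (adjusted p = 0.21) and Pfkp gave -0.21 (adjusted p = 0.63). Gpi1, which turns glucose-6-phosphate into fructose-6-phosphate just before this step, gave -0.06 (SE 0.15, adjusted p = 0.78).

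Fructose-2,6-bisphosphate, the strongest activator of phosphofructokinase, is made and removed by the bifunctional enzymes of the Pfkfb genes and removed by Tigar, a p53 target. Tigar had the lowest adjusted p of all members. Its log2 signal was 12.05, 11.72, 12.05 and 11.76 in WT and 10.08, 9.48 and 9.58 in AR113Q muscle, without overlap. The log2 fold change was -2.18 (SE 0.20, adjusted p = 2.0e-04), or 4.55-fold lower, and its neighboring second probe gave -1.96.

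Pfkfb1, the form of liver and muscle, was 12.11, 12.58, 12.95 and 11.74 in WT and 9.65, 10.94 and 11.64 in AR113Q muscle. The groups were separated by 0.10 between the lowest WT and the highest AR113Q value. Its log2 fold change was -1.60 (SE 0.47, adjusted p = 0.026), and the adjusted p exceeded 0.05 when WT 2, WT 3, AR113Q 1 or AR113Q 2 was left out, at 0.061, 0.059, 0.065 and 0.054. Without AR113Q 1 the log2 fold change was -1.06. Within each genotype its values were highest on the slow-fiber-rich arrays. Pfkfb2 gave -0.74 (adjusted p = 0.088), and -1.09 without AR113Q 3 (adjusted p = 0.012), and Pfkfb4 -0.56 (adjusted p = 0.17). Pfkfb3, an inducible form, gave 0.13 (adjusted p = 0.83) at its brightest probe and 1.27 (adjusted p over all kept probes 0.043) at a dimmer one, where 43.8% of all kept probes passed.

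In the reverse direction, Fbp2, the muscle fructose bisphosphatase, fell. It was 10.18, 10.13, 10.92 and 10.46 in WT and 9.02, 9.11 and 9.09 in AR113Q muscle, with a log2 fold change of -1.35 (SE 0.21, adjusted p = 0.0018). The AR113Q values had an SD of 0.05 (n = 3) and lay below all WT values. Fbp1, the liver form, was well above background on 1 WT and 2 AR113Q arrays. Its measured log2 fold change of 1.17 (SE 0.44, adjusted p = 0.061) therefore rests on values near background, and it shrank to 0.19 (adjusted p = 0.21) when normexp corrected the background.

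Aldoa, the muscle aldolase, was the brightest of all probes on each of the 7 arrays, so quantile normalization gave it 1 value, 18.54, everywhere and its fold change is not informative. Scaled instead to the 75th percentile of each array, its log2 signal was 18.81, 18.67, 18.82 and 18.84 in WT and 17.98, 18.14 and 18.53 in AR113Q muscle. On that scale the AR113Q values were all below the WT values and the log2 fold change was -0.57 (adjusted p = 0.030). Aldoc, the brain form, gave 0.19 (adjusted p = 0.41). Tpi1, the triose-phosphate isomerase, was 16.80, 16.55, 16.95 and 16.75 in WT and 15.15, 15.61 and 16.00 in AR113Q muscle. Its groups did not overlap, with a log2 fold change of -1.17 (SE 0.22, adjusted p = 0.0038).

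In lower glycolysis, from Gapdh to Pkm, all 9 genes had a negative log2 fold change, 6 passed the test as lower (22.6% of all genes), and 8 did not overlap between genotypes (49.3% of all genes). The 9 include Gapdh, which is uncertain, and the 6 include Eno1 and Pkm, whose calls were lost in most other settings. Pgk1, the phosphoglycerate kinase that yields the pathway's earliest ATP, was 15.94, 15.88, 16.08 and 16.04 in WT and 14.86, 14.87 and 15.05 in AR113Q muscle. The 3 AR113Q values had an SD of 0.11, and the log2 fold change was -1.06 (SE 0.14, adjusted p = 9.0e-04). Pgam2, the muscle phosphoglycerate mutase, was 16.95, 16.81, 17.10 and 17.19 in WT and 14.21, 15.16 and 16.09 in AR113Q muscle. It fell by 1.86 on the log2 scale (SE 0.39, adjusted p = 0.0061), with an SD of 0.94 among the AR113Q arrays. Pgam1, the form of other tissues, fell by 0.53 (SE 0.15, adjusted p = 0.025), and its adjusted p was 0.052, 0.066 and 0.054 without WT 2, WT 4 and AR113Q 1, 0.14 without the slow-fiber-rich arrays, and 0.013 to 0.28 over all settings.

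Bpgm, which makes and removes 2,3-bisphosphoglycerate and is best known from red blood cells, fell 4.22-fold. It was 12.17, 12.02, 12.37 and 12.46 in WT and 9.46, 10.48 and 10.60 in AR113Q muscle, with a log2 fold change of -2.08 (SE 0.28, adjusted p = 0.0010). The 4 erythrocyte markers tested did not pass. Their mean log2 level was 9.96 to 12.79 on the WT and 9.93 to 10.36 on the AR113Q arrays. Their part in the decrease of Bpgm was not tested. Eno1, the common enolase, gave -0.68 (adjusted p = 0.0495), Eno3, the muscle enolase, gave -0.56 (adjusted p = 0.074; 0.017 without AR113Q 3), and Eno2, the neuronal one, gave -0.27 (adjusted p = 0.31). Pkm, the pyruvate kinase, gave -0.48 (adjusted p = 0.042) at its brightest probe. Its other probe, placed on chromosome 5 while the gene lies on chromosome 9, gave -0.26 (adjusted p over all kept probes 0.18). The calls of Eno1 and Pkm were lost in 13 of 19 and 13 of 20 other settings, among them the one without the slow-fiber-rich arrays (adjusted p = 0.14 and 0.31) and, for each gene, 6 of the 7 that left out 1 array. Without AR113Q 1, Eno1 gave -0.39. The Eno1 probe is placed on chromosome 2, while the gene lies on chromosome 4.

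Gapdh had 9 kept probes, none placed on its own chromosome 6, so they may share signal with near-identical copies and the gene is uncertain. Their log2 fold changes ran from -1.19 to 0.04, and 3 passed over all probes. The brightest gave -0.33 (SE 0.14, adjusted p = 0.089), and -0.95 (adjusted p = 0.0039) when arrays were scaled to the 75th percentile.

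At the lactate step the result rested on the probe. Ldha, the lactate dehydrogenase subunit of fast muscle, was measured by 3 probes on chromosome 7. The brightest, furthest downstream, was 16.53, 16.08, 16.14 and 16.14 in WT and 15.85, 15.61 and 16.04 in AR113Q muscle. Its log2 fold change was -0.39 (SE 0.18, adjusted p = 0.12), which did not pass. The 2 other probes gave -1.95 and -2.06 (adjusted p over all kept probes 2.2e-04 and 2.9e-04). At the first of these the signal was 16.11, 15.90, 15.94 and 16.12 in WT and 13.72, 14.15 and 14.32 in AR113Q muscle, a wider gap between the genotypes than at the downstream probe. Both are shown here because they carry the larger decrease, and each lies in the coding sequence, as does the dimmer Tpi1 probe, which gave -1.71 (positions on mm9, probe strand 5′ to 3′).
Ldha, chr7:54107294-54107353, plus strand: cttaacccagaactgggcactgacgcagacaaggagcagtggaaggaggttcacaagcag
Ldha, chr7:54103010-54103069, plus strand: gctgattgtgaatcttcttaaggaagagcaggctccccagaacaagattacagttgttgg
Tpi1, chr6:124761923-124761982, minus strand: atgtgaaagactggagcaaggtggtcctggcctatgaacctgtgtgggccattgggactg

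In Ldha and Tpi1 the upstream probes fell more than the downstream ones. Over 2586 genes with kept probes at least 200 bases apart, the upstream probe had the lower log2 fold change in 32.9%, and the median difference, upstream minus downstream, was 0.21. This difference was 0.13 to 0.28 on the AR113Q arrays and -0.05 to 0.05 on the WT arrays, relative to the WT mean. Among 117 genes with several kept probes whose brightest had a log2 signal of at least 15, the brightest had the smaller absolute log2 fold change in 54.7%, and among the 3549 such genes with a dimmer one it did in 54.7%. The part of probe position in these results was not tested.

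**Figure D3:**
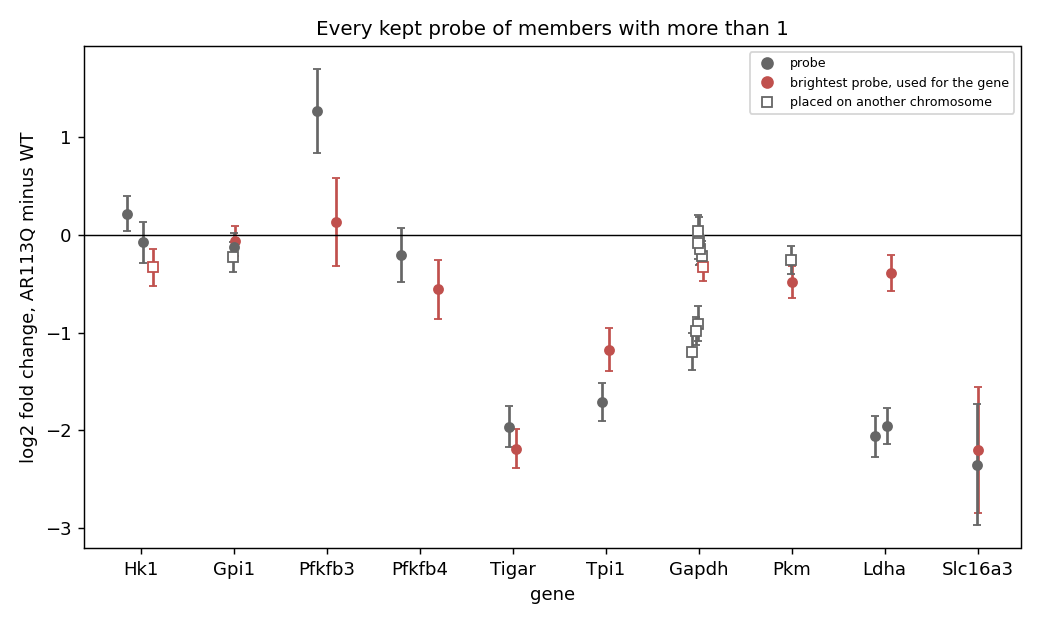
Log2 fold change with its standard error (vertical axis) of every kept probe of the 10 members with more than 1 probe; red marks the brightest probe, which stands for the gene, and open squares mark probes placed on another chromosome than the gene. The probes of Tigar and Slc16a3 lie close together, while those of Ldha and Gapdh are spread over more than 1 log2 unit.

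Slc16a3, which encodes the lactate exporter MCT4 of fast fibers, had the widest spread among AR113Q mice of the 14 DEGs. Its log2 signal was 14.97, 15.06, 14.94 and 15.37 in WT and 11.16, 13.02 and 14.48 in AR113Q muscle. All AR113Q values were lower, the nearest by 0.45. The log2 fold change was -2.20 (SE 0.65, adjusted p = 0.026), the overlapping second probe gave -2.35, and leaving out single arrays raised the adjusted p above 0.05 for WT 1, WT 2, WT 4 and AR113Q 2 (0.052, 0.054, 0.058 and 0.062). Without AR113Q 1 the log2 fold change was -1.33 (adjusted p = 0.035). Bsg, which encodes the chaperone that brings this transporter to the membrane, was lower by 0.71 (SE 0.14, adjusted p = 0.0041). Slc16a1, the lactate transporter of oxidative fibers, was close to background and gave -0.32 (adjusted p = 0.53), and -1.17 (adjusted p = 0.020) without the slow-fiber-rich arrays.

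Ldhb, the lactate dehydrogenase subunit of oxidative muscle, was high on the slow-fiber-rich arrays of both genotypes. It was 13.11 and 12.87 on WT 2 and WT 3 and 14.40 on AR113Q 3, against 11.32 and 11.27 on WT 1 and WT 4 and 10.86 and 11.51 on AR113Q 1 and AR113Q 2. The log2 fold change between genotypes was 0.12 (SE 0.86, adjusted p = 0.92), and without the slow-fiber-rich arrays it was -0.11 (adjusted p = 0.79).

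**Figure D4:**
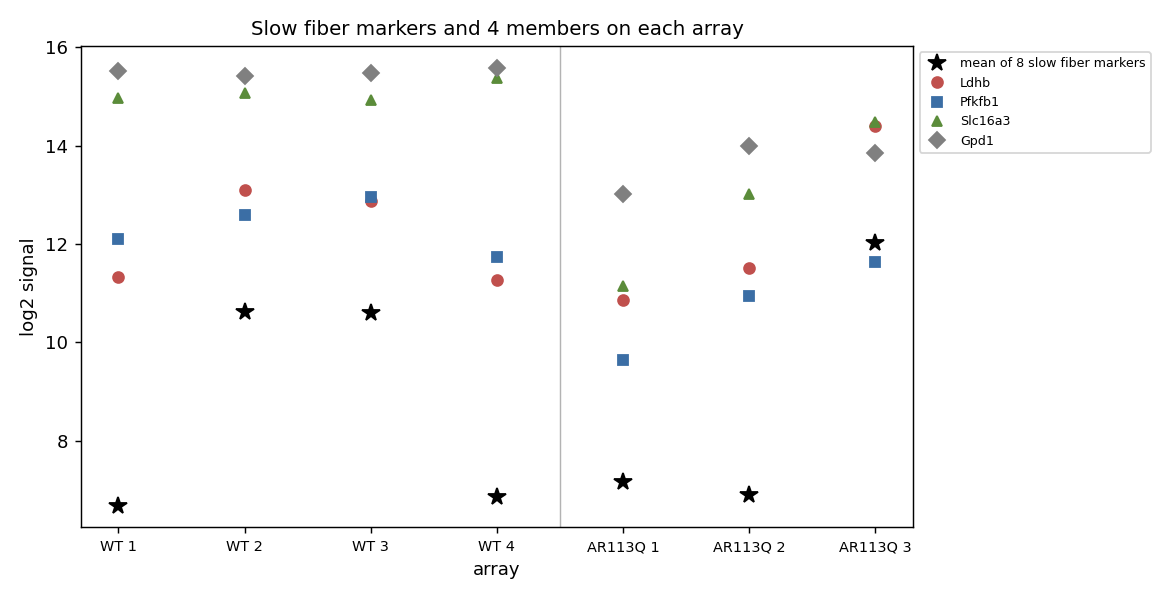
Log2 signal (vertical axis) on each of the 7 arrays of the mean of 8 slow fiber markers (stars) and of Ldhb, Pfkfb1, Slc16a3 and Gpd1. Ldhb is high on WT 2, WT 3 and AR113Q 3, the arrays with high slow fiber markers, while Gpd1 is at 15.42 to 15.58 on all WT arrays and at 13.03 to 13.99 on all AR113Q arrays.

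Both enzymes of the glycerol phosphate shuttle, which passes electrons from cytosolic NADH to the respiratory chain, fell. Gpd1, the cytosolic enzyme, was 15.51, 15.42, 15.49 and 15.58 in WT and 13.03, 13.99 and 13.84 in AR113Q muscle. Its log2 fold change was -1.88 (SE 0.24, adjusted p = 7.1e-04), or 3.68-fold lower. Gpd2, the mitochondrial enzyme, was 8.58, 8.75, 8.55 and 8.38 in WT and 7.22, 7.18 and 7.55 in AR113Q muscle. Its log2 fold change was -1.25 (SE 0.16, adjusted p = 8.8e-04). Gpd1 is also abundant in adipocytes, and 5 of 7 adipocyte markers were lower, with a mean log2 level of 10.61 to 11.61 in WT and 9.25 to 10.08 in AR113Q muscle. Their part in the decrease of Gpd1 was not tested.

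Of 26 genes around the pathway, in insulin signaling and GLUT4 traffic, 8 were higher and 9 lower, where 21% of all genes were higher and 22.6% lower, and their median log2 fold change was -0.01, as over all genes. Arrdc4 (2.81, SE 0.27, adjusted p = 2.7e-04) and Aspscr1 (1.87, SE 0.36, adjusted p = 0.0042) rose most; the former is an arrestin related to Txnip, and the latter encodes TUG, which tethers GLUT4 vesicles. Irs1, an insulin receptor substrate (-2.51, SE 0.30, adjusted p = 5.8e-04), and Prkag3, an AMPK subunit of glycolytic muscle (-2.36, SE 0.30, adjusted p = 7.3e-04), fell most.

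Of 20 transcription factors of glycolytic genes and their regulators, 6 were higher and 2 lower, against the same 21% and 22.6% of all genes, with a median log2 fold change of 0.30. Egln3, a prolyl hydroxylase that marks HIF proteins for destruction, rose by 2.69 (SE 0.31, adjusted p = 5.2e-04), and Mlxip, which encodes the glucose sensor MondoA, rose by 1.42 (SE 0.19, adjusted p = 8.5e-04). Mlxipl, which encodes its relative ChREBP, fell by 2.29 (SE 0.27, adjusted p = 5.7e-04), and Mef2c, a muscle transcription factor, fell by 1.11 (SE 0.23, adjusted p = 0.0062). Hif1a gave 0.47 (adjusted p = 0.057).

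Of 20 further isozymes and transporters 13 were tested, of which 2 were higher and 3 lower, beside 21% and 22.6% of all genes. Among them, Slc2a5, the fructose transporter, stood well above background on 0 WT and 3 AR113Q arrays, and was at least 1.24-fold higher in AR113Q. Slc2a6, another member of the transporter family, stood well above background on 3 WT arrays and on 0 AR113Q arrays, and was at least 2.04-fold lower. Each passed the filter only through the genotype in which it was bright and so had to differ, and neither supports a direction. When all 7 arrays had to be above background, 0 of these isozymes were higher and 1 was lower.

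The promoters of 3 members are shown because hypoxia-inducible and E-box factors are known to act on glycolytic genes through the letters ACGTG, and because these genes went different ways: Slc2a1 rose, Pgk1 fell, and Ldha fell by 2 of 3 probes. RefSeq promoters (GRCm38.p6) were found for 33 of the 36 members. Each window is the 250 bases before a start of the gene, on the plus strand, 5′ to 3′, with ACGTG on either strand in capitals.
Slc2a1, chr4:119108495-119108744: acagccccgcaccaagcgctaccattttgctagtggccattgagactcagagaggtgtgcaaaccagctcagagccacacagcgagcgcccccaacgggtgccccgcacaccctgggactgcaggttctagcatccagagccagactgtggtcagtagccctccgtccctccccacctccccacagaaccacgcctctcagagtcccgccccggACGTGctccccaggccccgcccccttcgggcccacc
Pgk1, chrX:106186850-106187099: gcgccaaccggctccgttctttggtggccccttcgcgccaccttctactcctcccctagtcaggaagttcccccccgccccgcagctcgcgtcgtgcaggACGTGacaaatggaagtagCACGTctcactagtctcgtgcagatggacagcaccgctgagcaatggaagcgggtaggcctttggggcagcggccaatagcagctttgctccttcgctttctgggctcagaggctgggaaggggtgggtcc
Ldha, chr7:46845554-46845803: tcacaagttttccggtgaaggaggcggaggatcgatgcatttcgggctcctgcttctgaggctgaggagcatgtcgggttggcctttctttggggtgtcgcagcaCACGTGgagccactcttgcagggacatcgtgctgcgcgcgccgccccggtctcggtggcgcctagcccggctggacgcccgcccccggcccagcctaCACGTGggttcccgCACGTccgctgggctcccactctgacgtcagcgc

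The Slc2a1 window held 1 match, the Pgk1 window 2 and the Ldha window 5, with 0 at the other Ldha start, where each of its 2 CACGTG sites counts once on each strand. ACGTG stood in 19 of 51 member windows (37.3%) and in 16.6% of all 32851 windows. CACGTG, which contains it, stood in 6 member windows (11.8%) and in 6.02% of all. By gene, 15 of the 33 members with a promoter held ACGTG in at least 1 window. Among these were 9 of the 15 lower members with a promoter and Slc2a1, so the letters stood before genes of both directions. The share by gene over all genes was not counted, and a gene with several windows has more chances of a match. A match describes the letters only.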

How the data were processed

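Quadriceps RNA was measured on 7 single-color Agilent arrays (4 WT, 3 AR113Q) on 5 slides. Per the submitters' processing notes, spots were extracted with Agilent Feature Extraction 10.7.3.1. The authors deposited a background-subtracted intensity per spot, not normalized between arrays, and a table of log2 values that the methods describe as quantile normalized. Each array held 43020 non-control spots for 39429 probes, of which 18785 to 22013 were well above background and 0 spots saturated. The number of arrays limits the precision.

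Here log2 intensities were quantile normalized without outlier spots (94 to 151 per array), and spots of a probe were averaged. Probes well above background on at least 3 arrays were kept (20991), and the brightest kept probe stood for its gene. Subtracting background spreads the values of dim spots. Symbols came from RefSeq accessions for 28330 probes, otherwise from the scanner files. The test was limma (version 3.58.1, under R 4.3.3; lmFit and eBayes), adjusted by Benjamini-Hochberg over 16577 genes. The procedure was tested on simulated data. Signals of different probes are not compared as abundances.

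All members are named, with every array given for DEGs. From each further list the 2 largest increases and the 2 largest decreases that passed are named, and markers where they bear on a member. Some genes of these lists are not reported here. Other genes named in passing (Bsg, Hif1a, Myh7, Pecam1, Flt1) were chosen after their values were seen. The members and lists were chosen with earlier results of these data known. The alternatives were the 75th percentile scaling, normexp background correction, the authors' values, other filters and probe rules, an intensity trend, slide and replicate terms, and each array left out. Leaving out off-chromosome probes and the 3 slow-fiber-rich arrays was added after seeing the data.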

Additional observations from a re-analysis of the deposited data

Results flagged for a closer look

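In 5 of the 35 members 1 WT array stood apart from the other 3 by Dixon's test, where chance flags about 1 in 20 groups. Aldoa, to which normalization gave 1 value on all arrays, could not be examined. WT 4 was high for Pfkl (7.29, the next at 6.86). WT 2 was high for Fbp1 (3.98, the next at 2.66), a probe that was well above background on 1 WT array. WT 3 was high for Eno2 (6.12, the next at 5.74). WT 1 was low for Pkm (16.19, the next at 16.35) and high for Ldha at its downstream probe (16.53, the next at 16.14). Without WT 2, Fbp1 had a log2 fold change of 1.51 (limma adjusted p = 0.015), which rests on WT values near background, and without WT 1, Pkm no longer passed (adjusted p = 0.065).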

How the results depend on the processing

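Among the 17 lower members and the 14 DEGs, both counts stayed within 1.5 times under all alternatives except slide as a fixed effect, which called 0 higher members, 0 lower members, 0 DEGs and 0 genes of each further list in either direction. With each array left out, 1 to 2 members were higher, 12 to 18 lower and 12 to 15 DEGs. Fbp1 became the second higher member, for a count of 2, with slide as a random block (adjusted p = 0.046) and without WT 2 or AR113Q 1. Deviations of same-numbered arrays correlated at 0.04, -0.02 and 0.16, which cannot show whether the replicate numbers pair mice. The fit with a replicate block gave 1 higher member, 15 lower members and 14 DEGs, with 4 members losing and 2 gaining a call. AR113Q 3 alone correlated best with its own number. The further isozymes had 1 higher gene with normexp, 0 with the authors' values and 0 when all 7 arrays had to be above background, and 1 lower gene in the last case and 1 with no filter. Without the slow-fiber-rich arrays, 5 insulin and GLUT4 genes were higher and 1 transcription factor was lower; leaving out single arrays gave 2 to 4 lower transcription factors.

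Of 694 member values over the alternatives, 592 kept their direction and their side of the threshold, 63 lost the call, 21 gained it and 18 turned sign. Those that turned sign all belonged to members that did not pass. With slide as a fixed effect these were Gpi1 (0.0072), Fbp1 (-0.69), Eno2 (0.20) and Ldhb (-2.24). With the replicate block they were Pfkp (0.027), Pfkfb3 (-0.0077) and Ldhb (-0.18), and without the slow-fiber-rich arrays Slc2a3 (0.0023), Pfkfb3 (-0.23) and Ldhb (-0.11). Over single arrays left out, Slc2a3 ran from -0.52 to 0.23, Gpi1 from -0.12 to 0.053, Pfkp from -0.42 to 0.027, Pfkfb3 from -0.20 to 0.52 and Ldhb from -0.96 to 0.81. The cause of these changes was not tested.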
